A study of Mus musculus with 4 samples.

Results

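The genes described here carry out or control DNA replication and mitosis. Of 50 such genes listed by name, 49 were measured by a probe set whose only gene symbol in the array's annotation was that gene, out of 18193 genes so named, and each was read from the probe set with the highest mean log2 value over the 4 arrays. They comprise 22 replication genes and 27 of 28 mitosis genes. Ccnb1, the gene of cyclin B1, had no such probe set and was not analysed here. All 49 were bright enough to be among the 13331 genes tested.

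The arrays came from 4 mammary tumours that grew in nude mice, hosts without a thymus and so with few T cells, after transplantation of Eph4 cells, a mouse mammary epithelial cell line. In the 2 Eph_EN tumours the cells had been transduced with ETV6-NTRK3, a fusion of a transcription factor gene with the kinase part of a neurotrophin receptor gene. In the 2 Eph_EN_DN tumours the same kind of cells carried ETV6-NTRK3 and co-expressed TAM67, which is c-Jun in a dominant negative form; c-Jun is a subunit of the transcription factor AP-1. All 4 tumours therefore carried the fusion, and no tumour or cell sample without it was analysed here. Strain, age, time after transplantation, and whether the cells were clones or pools are not given in the sources used here. Tumours are numbered in the labels, which do not state separate mice or cultures within a group, and the p-values therefore reflect only the spread between these samples, part of which may be technical. The comparison addresses which transcripts differed between grown tumours with and without TAM67, and neither tumour growth nor AP-1 activity was measured here.

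A dividing cell copies its DNA once and then separates the copies. In G1 the MCM helicase is loaded on origins (licensing), cyclin E with Cdk2 starts S phase, polymerases and their clamp copy the DNA from nucleotides made by enzymes such as ribonucleotide reductase, and cyclin B with Cdk1 starts mitosis, which ends when the anaphase-promoting complex (APC/C) marks its substrates for destruction. Transcripts of the replication genes peak around the start of S phase under E2F transcription factors, and those of the mitosis genes peak in G2 and mitosis under the MuvB, B-Myb and Foxm1 factors. In mammary tumours, Mki67 and other members are widely used as marks of proliferating cells, and c-Jun is known as a positive regulator of progression through G1.

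Both expression classes have known promoter elements, which are shown because the replication and mitosis genes are set against each other below. RefSeq promoters (GRCm38.p6, 250 bases before to 50 after a transcription start) were held for 42 of the 50 genes. The E2F element, searched as TTTNNCGC on both strands, was present in 10 of 19 replication genes and 1 of 23 mitosis genes (Cdk1), and in 5.93% of all genes in that table. The cell cycle homology region (CHR) bound by MuvB complexes, searched as TTTGAA on both strands, was present in 2 of 19 replication genes and 17 of 23 mitosis genes, against 20.2% of all genes. A CCAAT box, searched as CCAAT on both strands, was found in 10 of 19 replication genes and 20 of 23 mitosis genes, against 41.1% of all genes. Such matches describe letters in a window and are not measured binding sites. Stretches that end at or before the start of transcription are printed 5′ to 3′ on the gene's strand, with matches to any of the 3 motifs in capitals: Mcm6 at chr1:128359706-128359825 (minus strand), Pola1 at chrX:93632181-93632300 (minus strand), Cdk1 at chr10:69352913-69353052 (minus strand), Top2a at chr11:99024200-99024299 (minus strand), Kif11 at chr19:37376322-37376381 (plus strand) and Cdc20 at chr4:118437344-118437403 (minus strand).
Mcm6: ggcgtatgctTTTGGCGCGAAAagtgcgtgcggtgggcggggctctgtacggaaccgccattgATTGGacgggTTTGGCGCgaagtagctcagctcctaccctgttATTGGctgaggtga
Pola1: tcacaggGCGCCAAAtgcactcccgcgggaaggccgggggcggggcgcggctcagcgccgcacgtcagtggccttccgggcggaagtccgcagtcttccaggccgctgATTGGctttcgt
Cdk1: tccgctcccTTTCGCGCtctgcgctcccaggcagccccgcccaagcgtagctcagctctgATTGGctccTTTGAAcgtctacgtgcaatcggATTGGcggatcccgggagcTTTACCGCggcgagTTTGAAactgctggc
Top2a: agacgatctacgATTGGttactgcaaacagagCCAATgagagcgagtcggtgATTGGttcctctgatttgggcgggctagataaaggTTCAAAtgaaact
Kif11: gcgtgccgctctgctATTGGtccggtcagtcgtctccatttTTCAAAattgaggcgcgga
Cdc20: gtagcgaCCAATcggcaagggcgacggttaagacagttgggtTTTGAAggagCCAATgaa
The Mcm6 stretch holds E2F matches in both orientations that overlap each other, and no CHR match. Pola1 shows 1 E2F match, in the reverse orientation (GCGCCAAA), and 1 reversed CCAAT box. Cdk1 alone among the mitosis genes combines E2F matches (TTTCGCGC and TTTACCGC) with CHR matches. Top2a and Kif11 carry the CHR in reverse (TTCAAA) near the start and CCAAT boxes upstream of it, and Cdc20 carries a CHR flanked by CCAAT boxes.

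Replication and mitosis genes read higher on average in Eph_EN_DN than in Eph_EN tumours, but none of the 49 passed the test, and the difference rested on 1 tumour. Differences here are Eph_EN_DN minus Eph_EN on the scale log2(intensity + 16), where intensity is the deposited linear value, with n = 2 tumours in each group, and levels are given in the units of that intensity. The median difference of the 49 genes was 0.21, with 40 positive and 9 negative (0.11, with 37 and 12, when each array was centred on its median), against a median of 0.019 and 52.2% positive over all genes tested. At an adjusted p under 0.05 (limma, Benjamini-Hochberg over all genes), 0 of 49 were called, where 0.555% of all genes were called. At an unadjusted p under 0.05, 7 members were higher and 0 lower, where 4.86% of all genes were higher and 4.94% lower. The groups did not overlap, with both Eph_EN_DN tumours higher, in 16 of 49 genes (all genes, 20.2%), and with both lower in 1 of 49, Prc1 (all genes, 20%). With 2 against 2 tumours an exact two-sided permutation test of a single value cannot go below 0.333. The 95% intervals of 10 members reached a 2-fold excess in Eph_EN_DN tumours and that of 1 member, Tyms, a 2-fold deficit, so such changes in those genes lie within the error of these 4 arrays.

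Eph_EN tumour 1 stood apart from the other 3 tumours in these genes. It was the lowest of the 4 in 40 of 49 members (81.6%), where it was the lowest in 29.2% of all genes tested. Taken as deviations of each gene from its mean over the 4 arrays, the members' median was -0.35 in Eph_EN tumour 1, 0.14 in Eph_EN tumour 2, 0.18 in Eph_EN_DN tumour 1 and 0.018 in Eph_EN_DN tumour 2. Eph_EN tumour 2 exceeded Eph_EN tumour 1 in 46 of 49 members, the exceptions being Cdc6, Foxm1 and Cdc20, with a median excess of 0.51 against 0.063 over all genes. Without Eph_EN tumour 1 the members' median difference was -0.0076, with 24 positive and 25 negative (all genes, -0.020 with 48% positive). Without Eph_EN tumour 2 the members' median difference was 0.47, with 45 positive and 4 negative (all genes, 0.037 with 54.3% positive). The 7 housekeeping genes tested had a median deviation of 0.024 in Eph_EN tumour 1, where the members were at -0.35. These 7 genes scattered: Eph_EN tumour 1 was the lowest of the 4 in 2 of them and the highest in 3. Their differences between the groups ran from -0.57 for B2m to 0.31 for Hprt. In bulk tumour RNA, fewer cells in cycle and less of each transcript per cell cannot be told apart.

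**Figure D1:**
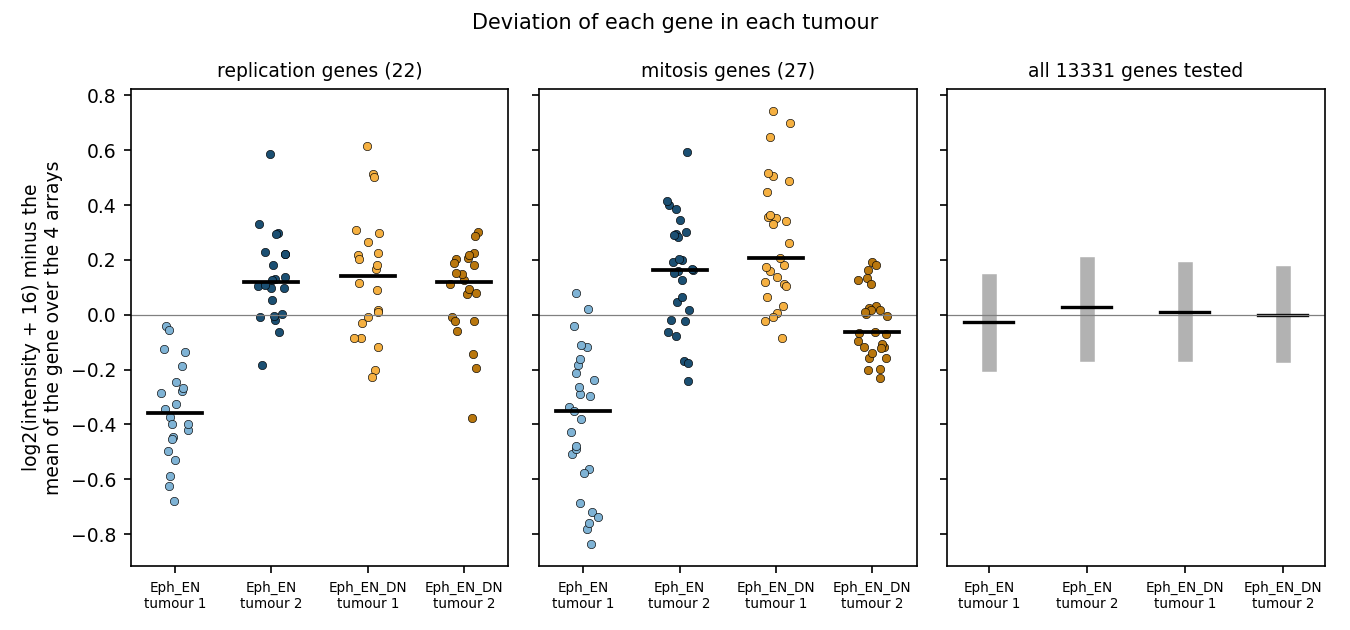
Deviation of each gene in each tumour, as log2(intensity + 16) minus the gene's mean over the 4 arrays (vertical axis); points are genes and black lines medians for the 22 replication and 27 mitosis genes, and grey bars span the middle 50% of all 13331 genes. Eph_EN tumour 1 lies below the other tumours in both gene classes (medians of -0.36 and -0.35), and the mitosis median of Eph_EN_DN tumour 2 (-0.064) lies below that of Eph_EN_DN tumour 1 (0.21).

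Several other measures also differed between the tumours, not all in the order of the members, and their part in the members' values was not tested. The ratio of 3′ to 5′ signal for Gapdh was 0.938 in Eph_EN tumour 1, 1.04 in Eph_EN tumour 2, 1.17 in Eph_EN_DN tumour 1 and 1.11 in Eph_EN_DN tumour 2. The 18S ribosomal RNA control probe sets averaged 5.43, 6.40, 6.76 and 7.43 on the log2 scale in the same order, so that Eph_EN tumour 1 was the lowest on both. Mammary epithelial markers were present in every tumour, with Krt8 between 1469.6 and 2048 units and Epcam between 226 and 307 units, whereas Krt19 stayed between 3.41 and 15.8 units. Summed over the 11 of 12 epithelial markers tested, the signal was 3883 and 4105 units in Eph_EN and 3291 and 3546 in Eph_EN_DN tumours. Krt8 and Krt18 were the largest parts of these sums, and the median difference of the 11 markers was 0.063, with 6 positive and 5 negative. By limma 0 of 11 were called (1 higher and 2 lower at an unadjusted p under 0.05). In the fibroblast and macrophage lists 7 of 8 differences each were negative, the exceptions being Dcn and Mrc1. Fibroblast markers (8 of 8 tested) summed to 15239 and 21637 against 14310 and 12478. Macrophage markers (8 of 8) summed to 17640 and 14828 against 11674 and 9298, and endothelial markers (4 of 6) to 451 and 607 against 338 and 399.9. In each of these lists 0 were called by limma, with 5, 5 and 2 lower and 0 higher at an unadjusted p under 0.05. The lower genes were 62.5%, 62.5% and 50% of those tested, where 4.94% of all genes were lower. Adipocyte markers (5 of 8) summed to 533 and 322 against 1382 and 5983, and Car3, Fabp4, Adipoq and Retn rose (adjusted p = 4.74e-04, 0.0217, 0.0485 and 0.0481 in limma). Of 16 alternative settings, 2 lost the call of Car3, 7 that of Fabp4, 12 each those of Adipoq and Retn, and 4 that of Myh1. Skeletal muscle markers (4 of 7) summed to 222 and 231 against 354 and 363, where Myh1 rose (adjusted p = 0.00923), and lymphocyte markers (3 of 8) to 230.5 and 206 against 218 and 233, with 0 called by limma (0 also at an unadjusted p under 0.05). Of the 4 muscle markers tested, 3 had positive differences, the exception being Ckm at -0.0044. No marker with a probe set was at 0 in any tumour. Across all genes tested, 18 were higher and 56 lower in Eph_EN_DN tumours, or 7 and 48 with each array centred on its median.

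The members of origin licensing all had positive differences, and 8 of 9 were lowest in Eph_EN tumour 1. Mcm2, a subunit of the replicative helicase, read 274 and 432 units in the Eph_EN and 474 and 466 in the Eph_EN_DN tumours, a difference of 0.43 ± 0.23 (SE, adjusted p = 0.578). Mcm6, of the same helicase, read 585 and 1009 against 1034 and 1013 units (0.41 ± 0.24, adjusted p = 0.613). In both genes 3 tumours lay close together and Eph_EN tumour 1 lay below them, so that the groups did not overlap although Eph_EN tumour 2 was nearly level with the Eph_EN_DN tumours. Mcm7 read 994 and 1598 against 1452 and 1489 units and overlapped between the groups (0.22 ± 0.22, adjusted p = 0.796). The other helicase genes Mcm3, Mcm4 and Mcm5 differed by 0.20, 0.12 and 0.10. Cdt1, which loads the helicase, differed by 0.31 and Gmnn, which encodes its inhibitor geminin, by 0.19, both without overlap of the groups. Cdc6, the other loading factor, had another pattern: it read 37.9 and 36.1 against 68.4 and 35.7 units, high in Eph_EN_DN tumour 1 alone. Cdc6 had only 1 probe set. Its signal stood near the array medians of 35.6 to 40.8 units in all tumours but Eph_EN_DN tumour 1. The median of the 9 genes was 0.22, and 0.019 against Eph_EN tumour 2 alone, where 5 of 9 were positive.

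The 5 genes of the replication fork were all lowest in Eph_EN tumour 1, with a median difference of 0.29. Pcna, the sliding clamp, read 1237 and 1505 against 1719 and 1637 units (0.29 ± 0.19, adjusted p = 0.658). Fen1, the flap endonuclease that trims Okazaki fragments, read 466 and 562 against 733 and 622 units (0.39 ± 0.21, adjusted p = 0.578), and Pola1, the catalytic subunit of the primase-coupled polymerase, read 82.6 and 102 against 122 and 111 units (0.30 ± 0.21, adjusted p = 0.698). In these 3 genes both Eph_EN_DN tumours lay above both Eph_EN tumours. Lig1, the ligase that joins the fragments, and Rfc4, of the clamp loader, overlapped between the groups (0.24 and 0.17). Against Eph_EN tumour 2 alone the median of the 5 genes was 0.15, with 3 of 5 positive.

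Genes of nucleotide supply diverged. Rrm1, the large subunit of ribonucleotide reductase, read 226 and 385 against 443 and 418 units, without overlap (0.52 ± 0.24, adjusted p = 0.507). Rrm2, its small subunit, read 232 and 419 against 593 and 366 units (0.55 ± 0.28, adjusted p = 0.538), with Eph_EN_DN tumour 1 highest and the groups overlapping. Tk1, the cytosolic thymidine kinase, differed by 0.067. Tyms, thymidylate synthase, had the most negative value of all 49 genes, at 36.9 and 70.6 against 38.4 and 28.4 units (-0.46 ± 0.32, adjusted p = 0.693). Its signal stood near or below the array medians of 35.6 to 40.8 units in all tumours but Eph_EN tumour 2. Against Eph_EN tumour 1 alone Tyms was at -0.11, and its other probe set past the filter on dim signals differed by -0.18. The median of the 4 genes was 0.29, and -0.075 against Eph_EN tumour 2 alone.

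Among the regulators of the G1/S transition the cyclins E had opposite signs on the probe sets reported. Ccne2 read 95.1 and 141 against 206 and 139.8 units (0.49 ± 0.24, adjusted p = 0.53) and Ccne1 read 221 and 283 against 193 and 224 units (-0.25 ± 0.22, adjusted p = 0.755). The groups overlapped in both, and both 95% intervals included 0. The other Ccne1 probe set past the filter on dim signals had the sign of Ccne2, at 36.6 and 43.4 against 70.4 and 23.0 units (0.056). Their kinase Cdk2 differed by 0.19, without overlap, and the transcription factor E2f1 by -0.053. Without Eph_EN tumour 1, Ccne2 was at 0.24 and Ccne1 at -0.42, and the median of the 4 genes was -0.017 where it was 0.070 with all tumours.

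**Figure D2:**
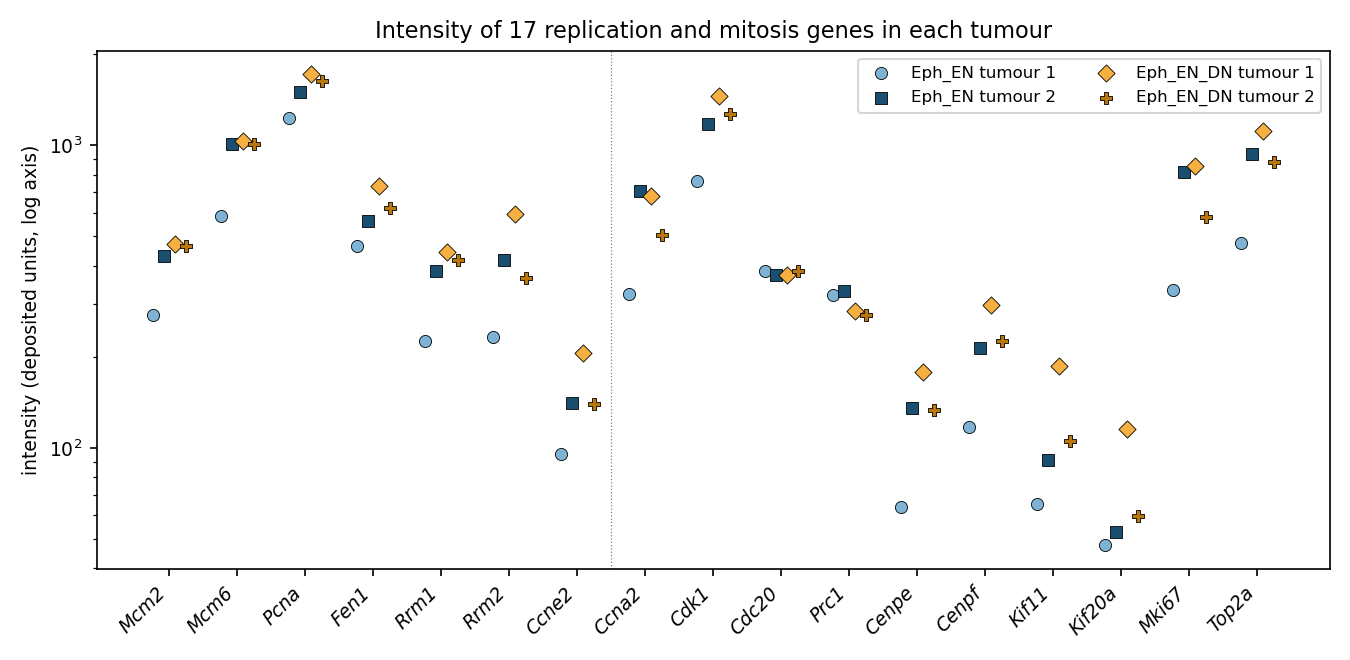
Intensity of 17 replication (left of the dotted line) and mitosis genes in each tumour, on a log axis; each point is 1 array. Eph_EN tumour 1 is the lowest point for most genes, such as Mki67 (332 units against 578 to 856 in the other tumours), while Cdc20 is level in all 4 (373 to 385) and Prc1 is lower in both Eph_EN_DN tumours.

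Of the genes of mitotic entry, Cdk1, the kinase that drives it, had the clearest separation. Cdk1 read 765 and 1174 units in the Eph_EN and 1456 and 1273 in the Eph_EN_DN tumours (0.51 ± 0.22, adjusted p = 0.449), without overlap, and stood at 0.21 against Eph_EN tumour 2 alone. Ccna2, cyclin A2, read 323 and 705 against 683 and 504 units (0.29 ± 0.29, adjusted p = 0.797), with Eph_EN tumour 2 highest and Eph_EN tumour 1 lowest, so that it was at -0.26 without the latter. The remaining 6 genes of this role ran from -0.11 for Ccnb2, cyclin B2, to 0.21 for Foxm1, the transcription factor of mitotic genes. The kinases Plk1, Nek2, Aurka and Aurkb stood at 0.0019, 0.080, 0.14 and 0.20. Foxm1 was among the few members not lowest in Eph_EN tumour 1, at 6.45 and 6.32 against 6.67 and 6.52 on the log2 scale. Its other probe sets past the filter on dim signals gave larger differences. One differed by 0.31 and was lowest in Eph_EN tumour 1. The dimmer one differed by 1.00, at 26.1 and 18.9 against 53.1 and 69.5 units, without overlap. The median of the 8 genes was 0.17, and -0.14 against Eph_EN tumour 2 alone, where 3 of 8 were positive.

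Spindle checkpoint and APC/C genes were split evenly, 3 positive and 3 negative, with a median of 0.059 that was -0.11 against Eph_EN tumour 2 alone. Ttk, the kinase at the head of the checkpoint, read 62.0 and 74.3 against 107 and 79.4 units (0.37 ± 0.23, adjusted p = 0.639), and Mad2l1, which binds and holds back Cdc20, read 284 and 337 against 449.8 and 357 units (0.36 ± 0.22, adjusted p = 0.64). Neither overlapped between the groups. Cdc20, the APC/C activator, was level at 385 and 373 against 373 and 383 units, a difference of -0.0034 with a 95% interval of -0.44 to 0.44. Bub1, Bub1b and the APC/C ubiquitin-conjugating enzyme Ube2c differed by 0.12, -0.17 and -0.083. These values depended on the probe set. The other Bub1 probe set past the filter on dim signals differed by 0.71, at 30.1 and 19.3 against 46.8 and 52.9 units. Those of Bub1b differed by -0.098 and 0.53.

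The genes farthest from 0 belonged to the centromere and the spindle, and in the 4 farthest (Kif11, Cenpf, Cenpe and Kif20a) Eph_EN_DN tumour 1 was the highest. Kif11, the motor that pushes spindle poles apart, read 65.1 and 91.1 against 187 and 106 units, a difference of 0.75 ± 0.25 (1.69-fold, 95% interval 0.22 to 1.29, adjusted p = 0.294). Kif20a, a motor of cytokinesis, read 47.6 and 52.6 against 115 and 59.3 units (0.59 ± 0.27, adjusted p = 0.479). Both were separated between the groups, with Eph_EN_DN tumour 1 well above the other 3 tumours; without it Kif11 was at 0.39 and Kif20a at 0.19, and another Kif11 probe set, then the brighter one, was at 0.26. Cenpf, a protein of the outer kinetochore, read 117 and 213 against 298 and 225 units (0.65 ± 0.26, adjusted p = 0.409), without overlap. Cenpe, the kinetochore motor, read 63.5 and 136 against 178 and 133 units (0.63 ± 0.27, adjusted p = 0.449), where Eph_EN tumour 2 lay just above Eph_EN_DN tumour 2. Against Eph_EN tumour 2 alone, Cenpf was at 0.26 and Cenpe at 0.16. The centromeric histone Cenpa and the chromosomal passenger Birc5, survivin, differed by -0.055 and 0.10. The median of the 4 centromere genes was 0.37, and 0.026 against Eph_EN tumour 2 alone.

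Other spindle and cytokinesis genes showed smaller values. Ect2, which activates RhoA at the division plane, read 135 and 184 against 302 and 160.1 units (0.45), and Tpx2, a spindle assembly factor, differed by 0.32. Anln, anillin, read 332 and 599 against 593 and 406 units (0.13 ± 0.27, adjusted p = 0.915) and was at -0.28 without Eph_EN tumour 1. Kif23, a motor of the central spindle, had the widest gap between the Eph_EN tumours, 183 against 484 units, a ratio of 2.65, and read 366 and 301 units in the Eph_EN_DN tumours (0.14). Prc1, which bundles microtubules of the central spindle, was the member with both Eph_EN_DN tumours lower, at 319 and 331 against 283 and 276 units (-0.21 ± 0.21, adjusted p = 0.8), but its other probe set differed by 0.27. The median of the 7 spindle and cytokinesis genes was 0.32, and -0.0076 against Eph_EN tumour 2 alone.

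The proliferation markers Mki67 and Top2a varied widely within the Eph_EN group. Mki67, which coats mitotic chromosomes, read 332 and 814 units in the Eph_EN and 856 and 578 in the Eph_EN_DN tumours, a difference of 0.42 ± 0.31 (adjusted p = 0.708). The Eph_EN tumours alone spanned a ratio of 2.45, and Mki67 was at -0.20 without Eph_EN tumour 1. Top2a, topoisomerase IIα, read 475 and 940.3 against 1117 and 883 units (0.56 ± 0.26, adjusted p = 0.51), and was at 0.077 without Eph_EN tumour 1. In both genes the groups overlapped, with Eph_EN tumour 2 between the Eph_EN_DN tumours.

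**Figure D3:**
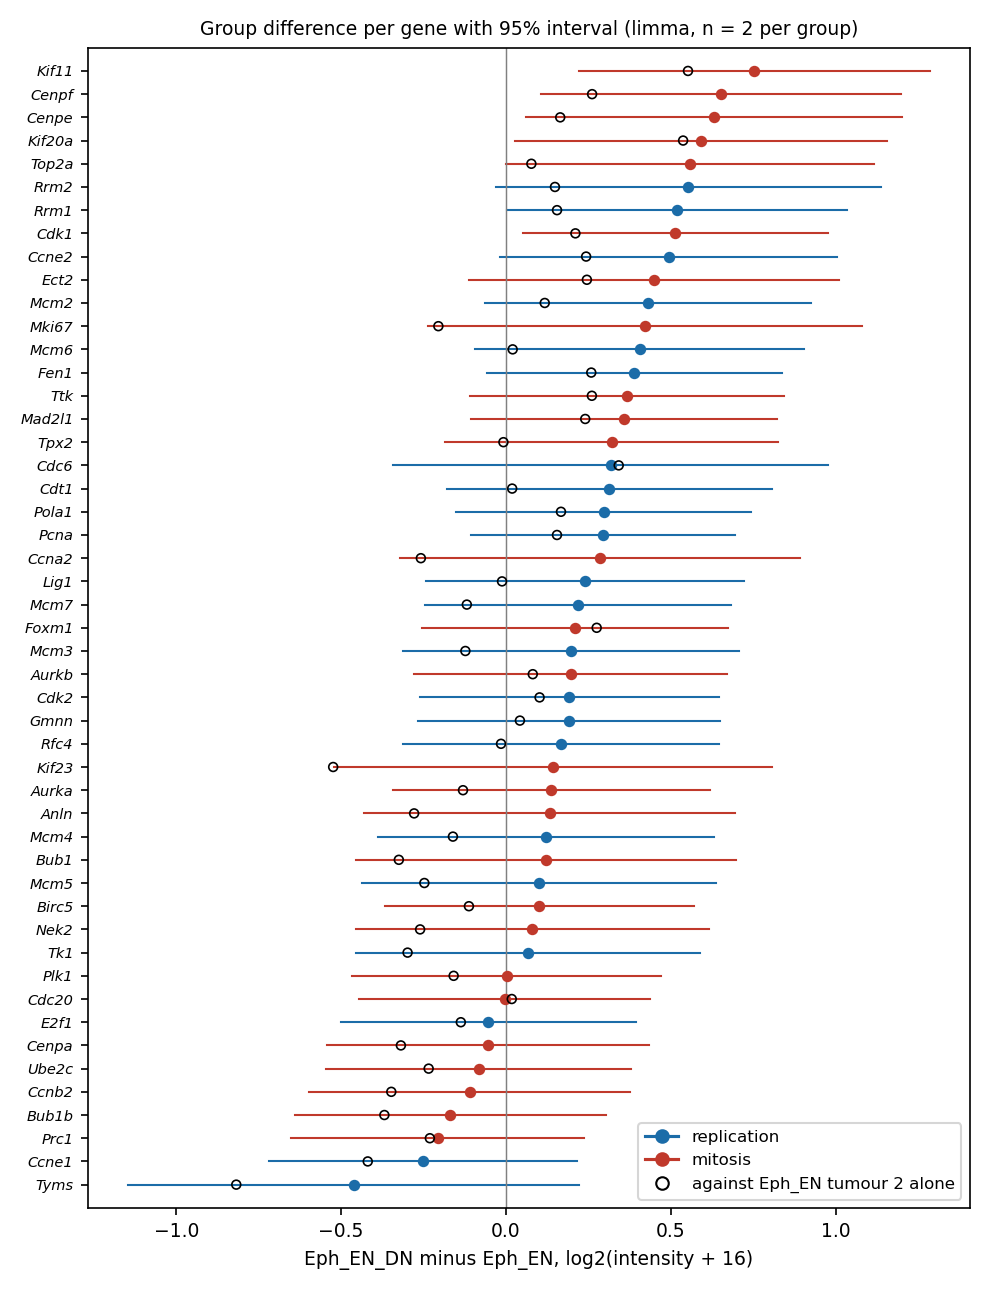
Difference between the groups for each of the 49 genes (horizontal axis, Eph_EN_DN minus Eph_EN, log2 scale) with its 95% interval from limma, in blue for replication and red for mitosis genes; open circles give the same difference against Eph_EN tumour 2 alone. Filled points lie above 0 for 40 of 49 genes, and open circles for 24 of 49.

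Set against each other, replication and mitosis genes did not separate between the groups. The median difference was 0.23 for the 22 replication genes (19 positive, 9 without overlap and higher in Eph_EN_DN) and 0.20 for the 27 mitosis genes (21 positive, 7 without overlap and higher), where 20.2% of all genes did not overlap and were higher. Without Eph_EN tumour 1 these medians were 0.020 and -0.11. The relation of the Eph_EN_DN tumours to each other read differently in the 2 classes. Eph_EN_DN tumour 1 exceeded Eph_EN_DN tumour 2 in 24 of 27 mitosis genes, the exceptions being Aurkb, Cdc20 and Tpx2, with a median excess of 0.32. In replication genes it did so in 13 of 22, with a median excess of 0.025, and over all genes tested in 50.9%. The ratio of tumour 1 to tumour 2 had a median of 1.26 in mitosis genes, from 0.857 for Aurkb to 1.95 for Kif20a, and of 1.02 in replication genes, from 0.698 for Mcm5 to 1.92 for Cdc6. The ranges of the classes overlapped widely, and the replication genes Cdc6, Rrm2 (1.62) and Ccne2 (1.48) were among the highest of all 49. The mitosis median minus the replication median was 0.0088 and 0.044 in the Eph_EN tumours, 0.065 in Eph_EN_DN tumour 1 and -0.18 in Eph_EN_DN tumour 2. No test was made of this order, since it compares single tumours.

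**Figure D4:**
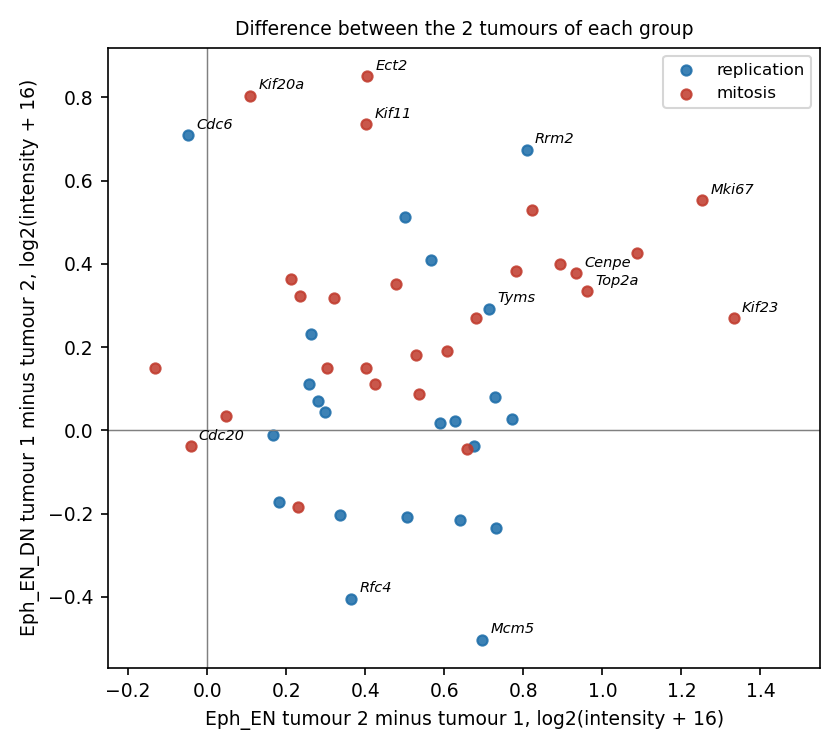
Difference between the tumours of each group for each gene, with Eph_EN tumour 2 minus tumour 1 on the horizontal and Eph_EN_DN tumour 1 minus tumour 2 on the vertical axis (log2 scale). Nearly all genes of both classes lie to the right of 0 (46 of 49), whereas 24 of 27 mitosis genes (red) but 13 of 22 replication genes (blue) lie above 0.

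The genes with promoter matches are subsets of these same members and add no separate evidence. The 10 replication genes with an E2F match had a median difference of 0.23, or 0.0036 without Eph_EN tumour 1, and Eph_EN_DN tumour 1 exceeded tumour 2 in 5 of 10. The 17 mitosis genes with a CHR match had a median difference of 0.14, or -0.16 without Eph_EN tumour 1, and Eph_EN_DN tumour 1 exceeded tumour 2 in 16 of 17, Cdc20 being the exception. Eph_EN tumour 2 exceeded Eph_EN tumour 1 in 9 of 10 and 16 of 17 genes.

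Further genes of the same processes were read from lists of known components. Over all genes tested, 0.555% were called by limma, and 4.86% were higher and 4.94% lower at an unadjusted p under 0.05. Of 41 other replication genes tested (43 listed), 0 were called by limma in either direction, with 5 higher and 0 lower at an unadjusted p under 0.05, and the median difference was 0.15, or 0.051 without Eph_EN tumour 1. Eph_EN tumour 1 was the lowest of the 4 in 25 of 41. Orc5, of the origin recognition complex, read 89.7 and 96.1 against 144 and 160.0 units (0.63 ± 0.21, adjusted p = 0.289), and Pola2, a partner of Pola1, 38.3 and 51.1 against 74.3 and 77.1 units (0.60 ± 0.24, adjusted p = 0.423). In both genes the groups did not overlap, but the Eph_EN tumours lay less close together in Pola2, whose signal was low. Of 61 other mitosis genes tested (67 listed), 0 were called in either direction, with 12 higher and 0 lower at an unadjusted p under 0.05, and the median was 0.25. Without Eph_EN tumour 1, which was the lowest in 36 of 61, it was 0.11 with 39 positive, where the 27 mitosis members stood at -0.11. The 39 positive were 63.9% of these other mitosis genes, against 48% over all genes without Eph_EN tumour 1. Ska1, which helps to couple kinetochores to microtubules, read 53.5 and 40.9 against 98.5 and 100.1 units (0.87 ± 0.23, adjusted p = 0.13), and Aspm, a protein of the spindle poles, 151 and 264 against 453 and 266 units (0.75 ± 0.28, adjusted p = 0.362). Eph_EN_DN tumour 1 exceeded tumour 2 in 43 of 61 other mitosis genes (median excess 0.20) and in 22 of 41 other replication genes (0.025). Both Eph_EN_DN tumours were higher, without overlap, in 26 of 61 other mitosis and 17 of 41 other replication genes (42.6% and 41.5%, against 20.2% of all genes). Both were lower in 6 of 61 and 3 of 41 (9.84% and 7.32%, against 20% of all genes).

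Among E2F factors, pocket proteins, which hold E2F in check, and MuvB subunits, 0 of 17 tested were called, with 1 higher and 0 lower at an unadjusted p under 0.05 (median 0.17, or 0.081 without Eph_EN tumour 1). The 1 higher gene was 5.88% of the 17, near the 4.86% over all genes. Lin54, the MuvB subunit that binds the CHR, read 35.8 and 46.7 against 92.5 and 65.9 units (0.73 ± 0.26, adjusted p = 0.33), and was at 0.52 without Eph_EN_DN tumour 1, when another of its probe sets, at -0.59, was the brighter one. E2f8, a repressive E2F, read 112 and 177 against 237 and 159 units (0.42 ± 0.25, adjusted p = 0.621).

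Members with more than 1 usable probe set showed how far the values depend on the probe. Of the 49 genes, 31 had more than 1 probe set past the filter on dim signals, and in 10 of these the signs disagreed: Bub1b, Ccne1, Cdc20, Cenpa, Cenpf, Mcm3, Mcm5, Prc1, Rrm2 and Tpx2. Counting all 94 such probe sets, 75 had a positive difference and 68 were lowest in Eph_EN tumour 1. The 3 Cenpf probe sets differed by 0.65, 1.04 and -0.27, and the 3 of Kif11 by 0.75, 0.42 and 0.22. Cenpe differed by 0.98 on its other probe set, at 56.8 and 104 against 269 and 103.7 units, where Eph_EN_DN tumour 1 was far above the rest. Single arrays also made calls: without Eph_EN tumour 2, Top2a (1.04, adjusted p = 0.0328) and Cenpf (1.04, adjusted p = 0.05, just under the threshold) passed, and without Eph_EN_DN tumour 2, Cenpe passed on the other probe set (1.61, adjusted p = 0.0291), where its first probe set was at 0.82. No member passed without Eph_EN tumour 1 or without Eph_EN_DN tumour 1.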

How the data were processed

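Total RNA of 4 tumours was made into biotin-labelled cRNA and hybridised to Affymetrix mouse arrays, 1 array for each tumour, per the labels. Linear intensities of 45101 probe sets were deposited for each array, and the authors' summarisation, background correction and scaling are not given in the sources used here. GEO's platform annotation, updated through RefSeq, gave 34945 of them a single symbol.

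Values were analysed as log2(intensity + 16), a scale that understates changes of dim genes. The 64 control probe sets and the dimmest 40% by mean log2 value were left out, which kept 27022, and the brightest probe set of each gene gave 13331 genes. The test was limma 3.58.1 under R 4.3.3, two-sided, with lmFit and a variance trend on intensity in eBayes; calls needed a Benjamini-Hochberg adjusted p under 0.05. Tumour number was not a term. The number of arrays limits the precision. Tested on simulated data for this comparison with 13331 genes, the fit called 83% of 100 genes changed 2-fold and 100% of 100 changed 4-fold. These changes were placed only in genes brighter than the median gene, on the log2 scale used here. The noise was normal and independent for each gene. Those shares therefore do not cover dimmer members such as Tyms and Cdc6, nor a shift shared by many genes in 1 tumour.

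Genes are named where they passed the threshold, where they had the 2 largest differences or the highest signal of their role, and, in other lists, as up to 4 called genes or the 2 largest differences; Mki67 and Top2a are always named, and other members with values were chosen after these were seen. Members and lists were chosen with earlier results of these data known. Alternatives covered the filter, scaling, pseudocount, probe sets, variance model, tumour number as a block, threshold and each array left out. Plots were drawn with matplotlib.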

Additional observations from a re-analysis of the deposited data

How the results depend on the processing

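No member passed limma's test under any of the 12 alternatives that kept all 4 arrays, among them the probe set with the highest linear mean, an alternative chosen after seeing the data. The count of all genes called, 74, was 38 with quantile normalization, 35 with a gene's probe sets averaged, 5 without the intensity trend and 11 with the tumour number as a replicate block; the cause was not tested. The block changed no call of a member (0 of 49). Equal tumour numbers share nothing but the number in the labels, and deviations of equal-numbered tumours correlated at -0.065 across 13331 genes, which are not independent replicates.

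With 1 array left out in turn, the spread of the remaining pair stood in for that of the lone tumour. All genes called then ran from 22 to 151, members called from 0 to 2, the members' median from -0.0076 to 0.47, that of replication genes from 0.020 to 0.44, that of mitosis genes from -0.11 to 0.48, and the mitosis minus replication median, -0.086 in all, from -0.18 to 0.075. Named genes whose sign turned ranged over these fits from -0.20 to 1.05 (Mki67), -0.12 to 0.56 (Mcm7), -0.26 to 0.83 (Ccna2), -0.11 to 0.31 (Birc5), -0.28 to 0.54 (Anln), -0.024 to 0.018 (Cdc20), -0.59 to 0.93 (Lin54, or 0.52 to 0.93 on the probe set reported, an alternative chosen after seeing the data) and -0.0089 to 1.34 (Krt14, an epithelial keratin). Mki67, Mcm7, Ccna2, Birc5 and Anln turned without Eph_EN tumour 1, Anln also (-0.13) and Lin54 without Eph_EN_DN tumour 1, Krt14 without Eph_EN_DN tumour 2, and Cdc20 without Eph_EN tumour 1 (0.018) or Eph_EN_DN tumour 1 (0.016). Cdc20 was also positive with quantile normalization (0.013) and with its probe sets averaged (0.073). Median centring lowered the members' median to 0.11, with 37 of 49 positive.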
